A study of Homo sapiens with 16 samples.

Results

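The genes described here are the ATP-binding cassette (ABC) genes, taken as every protein-coding gene whose symbol is ABC, a subfamily letter from A to G and a number. The count tables list 45 such genes among 19404 protein-coding genes. Of these, 43 reached 10 counts summed over the 8 low serum libraries and 39 reached 10 counts over the 8 standard serum libraries, so 43 of 16069 and 39 of 15414 tested genes were ABC genes. ABCG5 and ABCB11 were under this minimum in low serum. ABCB4, ABCG5, ABCG8, ABCD2, ABCB11 and ABCC12 were under it in standard serum. TAP1 and TAP2, the peptide transporters that the symbol rule leaves out, are given once further on.

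Bulk RNA-Seq was carried out on MDA-MB-231 and MDA-MB-436, triple-negative breast cancer cell lines stably carrying the 7TGP reporter, in which Tcf/Lef binding sites drive eGFP. All groups had been through puromycin selection, and the 7TGP-POS and 7TGP-NEG sublines of each line came from repeated FACS rounds that kept the brightest and the dimmest cells, so each subline is a sorted and expanded population. The replicates of a group come from 1 subline, so 7TGP status cannot be told apart from other differences between the sublines. Below, a change with 7TGP status, or a response to it, means only the difference between 7TGP-POS and 7TGP-NEG sublines. The 8 groups were the 7TGP-NEG and 7TGP-POS sublines of each cell line, cultured either at 0.5% FBS to day 3 (low serum) or at 10% FBS to day 6 (standard serum), with 2 biological replicates per group and 16 libraries in all. Low serum RNA was depleted of ribosomal RNA and standard serum RNA was selected for poly(A) according to the methods, whereas the labels name 1 poly(A) kit for all libraries, so serum, day, library preparation and sequencing run cannot be told apart, and serum conditions were not tested against each other. The culture medium of the cell lines also differs in the methods and is the same in the labels.

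Libraries held 27918418 to 32667756 counts in low serum and 31827130 to 46044073 in standard serum. The median replicate SD of log2 CPM was 0.0559 to 0.0798 in 7 groups and 0.111 in the standard serum group of MDA-MB-436 7TGP-POS. The mesenchymal marker VIM stood at 672 to 5520 normalized CPM over the 8 group means, while ESR1 stood at most at 0.699 and PGR at most at 1.01. FN1 stood at 118 to 1689, ZEB1 at 30.1 to 170 and SNAI2 at 1.30 to 28.95. CDH2, also listed as mesenchymal, stood at 133 to 237 in MDA-MB-436 but at 0.337 to 1.71 in MDA-MB-231. Among the epithelial and receptor markers, CDH1 stood at most at 0.307 and EPCAM at most at 9.34, while ERBB2 stood at 54.0 to 132. Of 10 Wnt feedback targets, 5 were higher and 1 was lower with 7TGP status in MDA-MB-231 in low serum at an adjusted p under 0.05. The same counts were 3 higher and 2 lower in MDA-MB-436 in low serum, 1 and 1 in MDA-MB-231 in standard serum, and 2 and 2 in MDA-MB-436 in standard serum. Of all genes, 38.9% and 33.0% passed in MDA-MB-231 and 52.0% and 49.5% in MDA-MB-436, low serum first. Of 5 mesenchymal markers, VIM was called lower in the positive cells of MDA-MB-231 under both serum conditions (-1.05 and -1.03), FN1 was called lower in that line in standard serum (-2.14) and higher in the positive cells of MDA-MB-436 in low serum (1.37). Of 5 epithelial and receptor markers, PGR was called lower in the positive cells of MDA-MB-436 in low serum (-1.93) and ESR1 higher in those of MDA-MB-231 in standard serum, where the negative libraries held 0 counts. The part of these shifts in the results below was not tested.

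ABC proteins share an ATPase module that, in most of the family, powers the movement of a substrate across a membrane. Subfamilies B, C and G include the multidrug efflux pumps that cancer cells can use to expel chemotherapeutic agents, subfamily A moves mainly lipids and sterols, and subfamily D works in peroxisomes and lysosomes. ABCE1 and the ABCF proteins have the ATPase module without membrane segments and act in translation.

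Promoter sequences are shown for the members called in MDA-MB-436 in both serum conditions, namely ABCB1, ABCA3, ABCA6 and ABCC6, because these carry the changes described first. Each line gives the 250 bases before a RefSeq transcription start (GRCh38.p14, minus strand, 5′ to 3′), at chr7:87600885-87601134 and chr7:87713296-87713545 for ABCB1, chr16:2340729-2340978 for ABCA3, chr17:69141896-69142145 for ABCA6 and chr16:16223472-16223721 for ABCC6. Capitals mark CG dinucleotides.
ABCB1 nearer start: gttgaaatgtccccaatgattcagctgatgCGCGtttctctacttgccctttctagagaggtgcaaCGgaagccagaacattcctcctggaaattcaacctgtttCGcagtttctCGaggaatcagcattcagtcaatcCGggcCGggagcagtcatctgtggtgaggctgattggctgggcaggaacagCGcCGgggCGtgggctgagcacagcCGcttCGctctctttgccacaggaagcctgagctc
ABCB1 farther start: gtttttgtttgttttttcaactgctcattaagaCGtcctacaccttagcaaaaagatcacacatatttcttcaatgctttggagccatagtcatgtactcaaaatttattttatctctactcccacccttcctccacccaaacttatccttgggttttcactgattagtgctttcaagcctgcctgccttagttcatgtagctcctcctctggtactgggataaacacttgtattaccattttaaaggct
ABCA3: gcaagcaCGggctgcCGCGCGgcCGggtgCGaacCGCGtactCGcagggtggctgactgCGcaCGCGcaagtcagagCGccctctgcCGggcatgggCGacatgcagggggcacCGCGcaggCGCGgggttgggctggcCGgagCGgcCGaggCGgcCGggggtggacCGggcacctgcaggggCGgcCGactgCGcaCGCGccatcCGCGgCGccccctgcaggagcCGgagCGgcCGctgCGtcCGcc
ABCA6: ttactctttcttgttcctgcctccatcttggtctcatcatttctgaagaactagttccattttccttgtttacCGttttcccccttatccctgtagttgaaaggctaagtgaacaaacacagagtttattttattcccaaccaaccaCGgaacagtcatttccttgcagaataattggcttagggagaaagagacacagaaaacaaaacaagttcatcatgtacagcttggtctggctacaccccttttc
ABCC6: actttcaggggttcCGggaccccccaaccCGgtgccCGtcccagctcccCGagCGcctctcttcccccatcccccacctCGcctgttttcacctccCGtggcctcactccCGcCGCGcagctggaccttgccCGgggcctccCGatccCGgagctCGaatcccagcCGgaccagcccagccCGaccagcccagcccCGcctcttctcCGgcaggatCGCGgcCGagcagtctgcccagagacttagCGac
The ABCA3 window held 38 CG dinucleotides, more than 96.7% of the 35116 windows in the table, and the ABCC6 window shown held 22, while a second, overlapping ABCC6 window with 21 is not shown. The ABCA6 window held 2 CG dinucleotides. The ABCB1 windows held 12 at the nearer start and 1 at the farther start, against a median of 11 over all windows. RefSeq windows were matched for 35 of the 45 members, with 53 windows in all. The Tcf/Lef core ATCAAAG, searched on both strands, lay in 0 of these 53 windows and in 2.26% of all windows. TGACNNNGC, a motif of the antioxidant response element type that can overlap a CG dinucleotide, lay in 9 of the 53 windows (17%) on either strand, the ABCA3 window among them, and in 10.9% of all windows. These letter matches are descriptions and say nothing of binding in these cells.

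Levels between genes were compared on the deposited TPM scale, which accounts for transcript length. ABCE1, which recycles ribosomes, and the ABCF proteins, which act in translation, held the first 4 places in both MDA-MB-231 sublines in both serum conditions. In MDA-MB-436 these places went to ABCE1, ABCF1, ABCF2 and ABCC1, an efflux pump for glutathione conjugates. Between the lines, mean ABCF2 in low serum was 78.9 normalized CPM in MDA-MB-231 7TGP-NEG and 202 in MDA-MB-436 7TGP-NEG. Mean ABCF1 was 176 and 90.5 normalized CPM in the same order. Over the 8 groups, 14 to 19 of the 45 members exceeded 10 TPM and 19 to 21 were under 1 TPM. ABCB1, the P-glycoprotein pump, was under 1 TPM in every group, with its highest mean at 0.865 TPM in MDA-MB-436 7TGP-NEG in low serum. TPM values in low serum run lower for a given expression, since only 41.0 to 69.6% of the TPM in those libraries lay in protein-coding genes, against 94.3 to 95.7% in standard serum. This share also differed between groups in low serum. It was 50.7 and 52.3% in MDA-MB-231 7TGP-NEG and 69.6 and 64.2% in MDA-MB-436 7TGP-NEG.

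**Figure D1:**
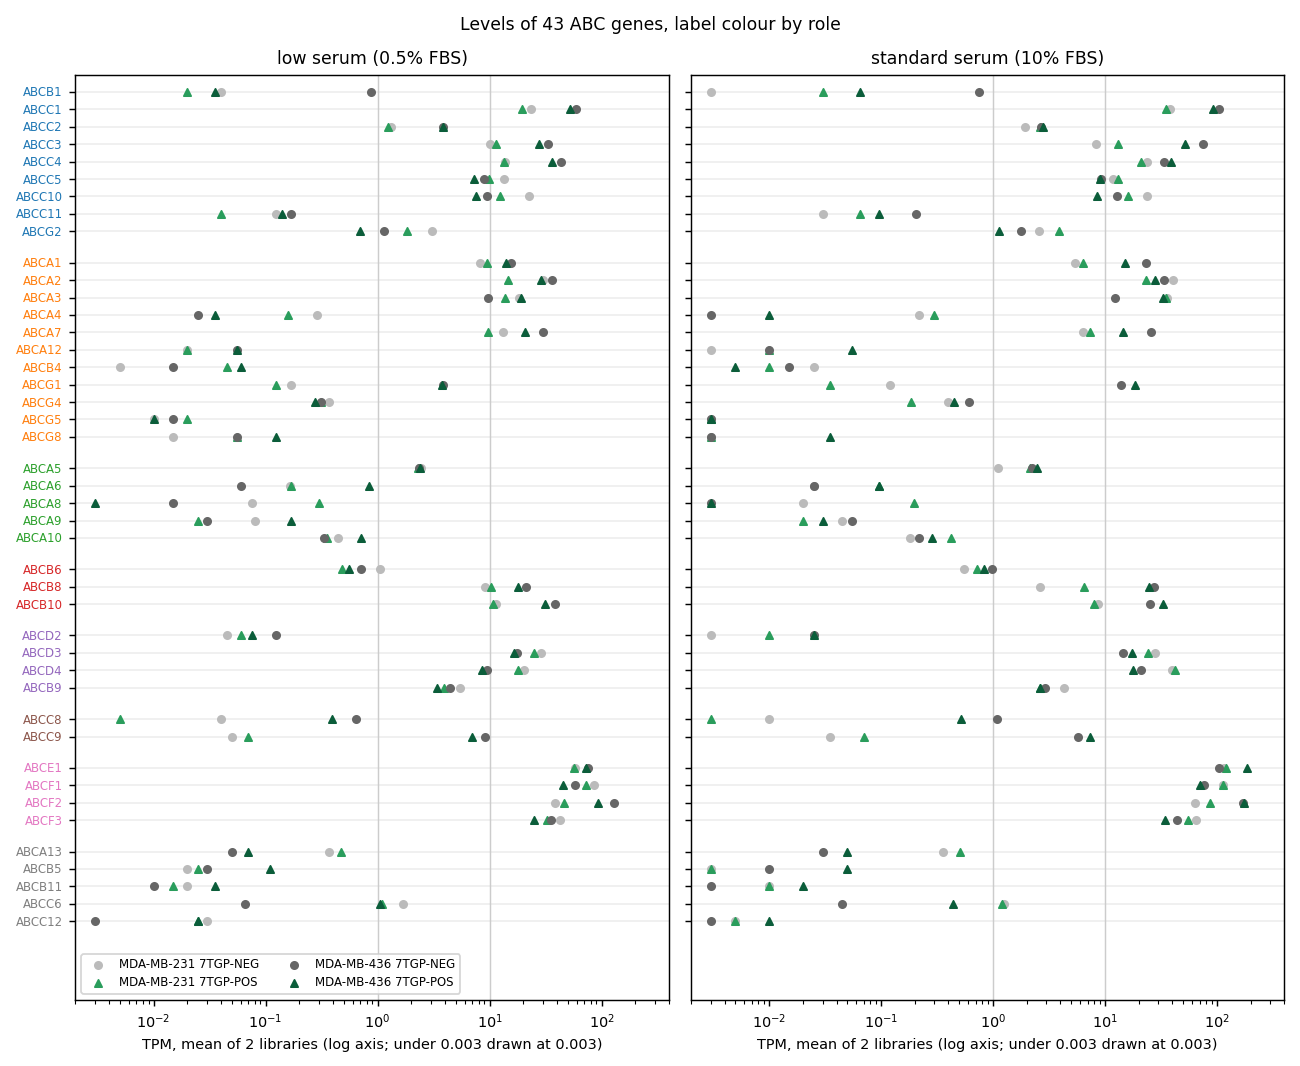
Mean TPM of 2 libraries (log axis) for 43 of the 45 ABC genes, grouped by role and coloured by role on the labels, in low serum (left) and standard serum (right); circles are 7TGP-NEG and triangles 7TGP-POS groups, and groups at 0 are drawn at the left end. ABCE1, ABCF1 and ABCF2 sit at the right of each panel, with ABCF3 in MDA-MB-231 and ABCC1 in MDA-MB-436, while 19 to 21 members per group sit under 1 TPM.

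The first question was which members differed between 7TGP-POS and 7TGP-NEG cells of each line. A gene is called where the adjusted p from edgeR's quasi-likelihood test (Benjamini-Hochberg over all genes tested) is under 0.05 and the absolute log2 fold change is at least 1. In MDA-MB-231 in low serum 1 member was called, ABCA8, which was higher, whereas 5.90% of all tested genes were called (3.50% higher and 2.40% lower). In MDA-MB-436 in low serum 7 of 43 members were called, 6 higher (ABCA3, ABCA6, ABCA9, ABCA10, ABCB5 and ABCC6) and 1 lower (ABCB1), against 10.5% of all genes (6.52% higher and 4.03% lower). In MDA-MB-231 in standard serum 5 of 39 members were called, 4 higher (ABCA6, ABCA8, ABCA10 and ABCB8) and 1 lower (ABCG4), against 7.69% of all genes (4.96% higher and 2.72% lower). In MDA-MB-436 in standard serum 6 of 39 were called, 3 higher (ABCA3, ABCA6 and ABCC6) and 3 lower (among them ABCB1 and ABCC8), against 12.5% of all genes (6.47% higher and 6.06% lower). Each count of members lies within a few genes of the background share, and the account below is about which members changed and by how much.

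Many other members passed the adjusted p with smaller changes. In MDA-MB-231, 8 members were higher and 11 lower in low serum and 10 higher and 6 lower in standard serum, while 38.9% and 33.0% of all genes passed. In MDA-MB-436, 9 members were higher and 5 lower in low serum and 7 higher and 13 lower in standard serum, while 52.0% and 49.5% of all genes passed. The median log2 fold change over members was -0.03 in MDA-MB-231 and 0.02 in MDA-MB-436 in low serum. In standard serum it was 0.17 and -0.22 in the same order. The medians over all tested genes were -0.01, 0.01, 0.00 and 0.01 in the same order.

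**Figure D2:**
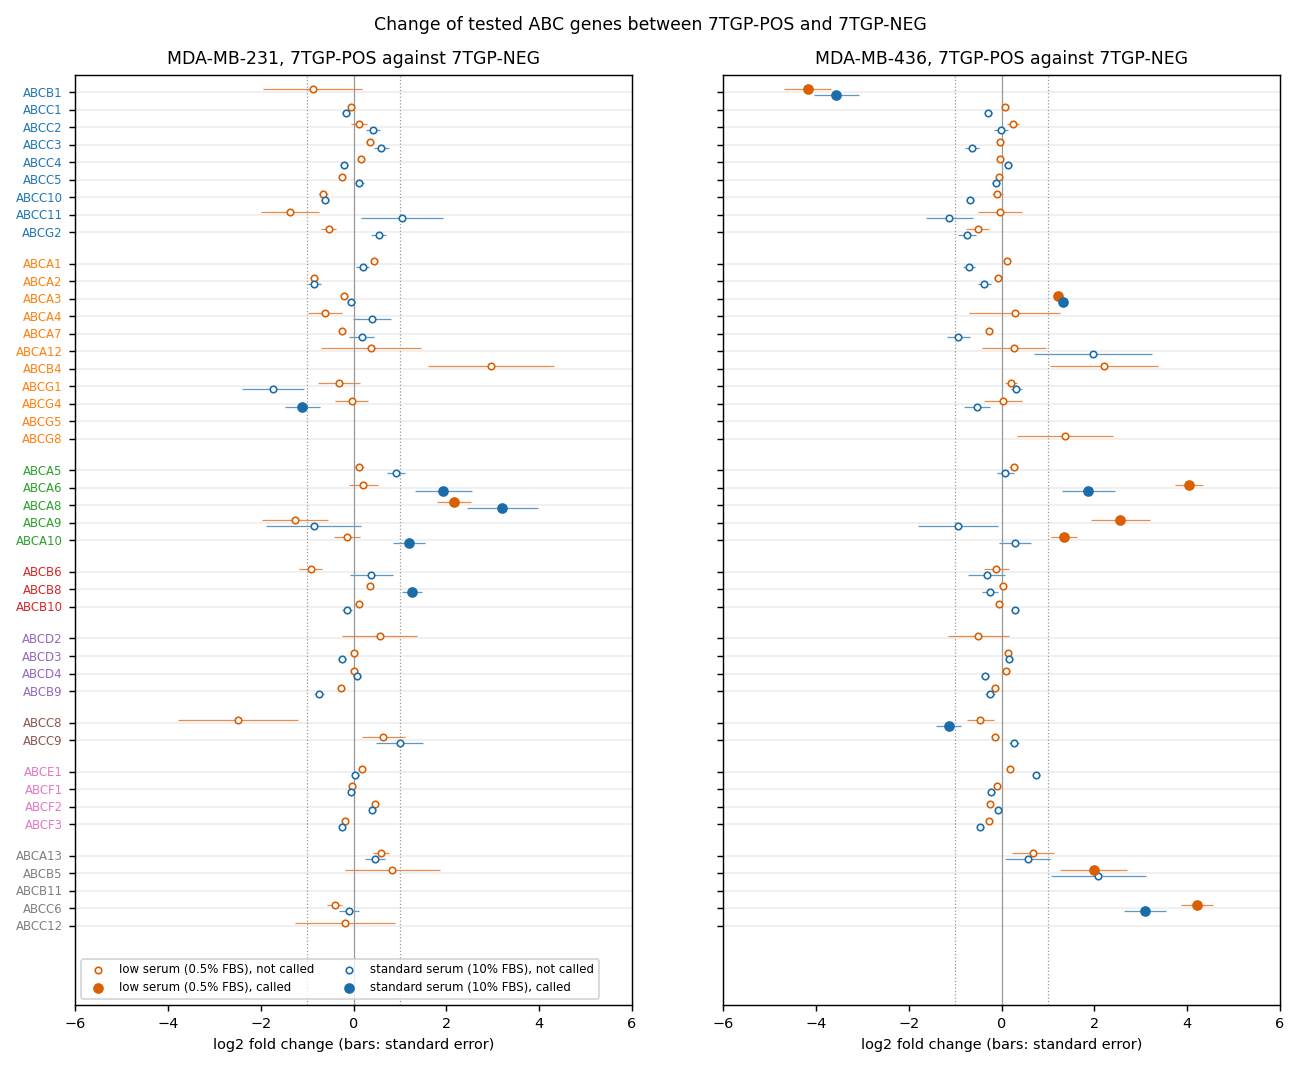
Log2 fold change of 7TGP-POS against 7TGP-NEG with its standard error for tested ABC genes by role, in MDA-MB-231 (left) and MDA-MB-436 (right); orange is low serum, blue is standard serum, filled points are called, dotted lines mark an absolute log2 fold change of 1, and genes with both groups at 3 counts or fewer in each library are not drawn. ABCB1 lies farthest to the left in MDA-MB-436 and ABCC6 and ABCA6 farthest to the right, and most members lie between the dotted lines.

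Among the 9 members tied to drug efflux, ABCB1 had the largest change. ABCB1 (ENSG00000085563, chromosome 7, 87132333 to 87342639 on GRCh37) encodes P-glycoprotein, which exports many hydrophobic drugs. In low serum MDA-MB-436 7TGP-NEG held 59 and 38 ABCB1 counts and MDA-MB-436 7TGP-POS held 3 and 2. The groups did not overlap, and with the positive group at 3 counts or fewer in each library the ratio scaled to library size was 18.4 with an exact 95% interval of 7.6 to 57.8 that covers counting error only (log2 fold change -4.17 ± 0.51 SE, edgeR adjusted p = 3.34e-09). In standard serum the counts were 28 and 56 in MDA-MB-436 7TGP-NEG and 5 and 3 in MDA-MB-436 7TGP-POS, a log2 fold change of -3.56 ± 0.49 (edgeR adjusted p = 1.06e-05). In bulk RNA, fewer expressing cells and less RNA per expressing cell cannot be told apart. MDA-MB-231 held 0 to 5 ABCB1 counts per library over both serum conditions, so no change in that line was detectable at this depth. The call for the difference of the 2 lines in standard serum is void as a size, since both MDA-MB-231 groups were at 3 counts or fewer in each library.

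ABCC3, an organic anion pump, and ABCG2, the breast cancer resistance protein, were at higher levels and changed less. In standard serum ABCC3 in MDA-MB-231 was at 21.0 and 27.1 normalized CPM in the negative and 30.9 and 41.7 in the positive cells. In MDA-MB-436 it was at 195 and 188 in the negative and 120 and 127 in the positive cells. ABCC3 was thus higher in the positive cells of one line (0.60 ± 0.17, edgeR adjusted p = 0.0286) and lower in those of the other (-0.63 ± 0.15, edgeR adjusted p = 0.0104). The difference of these log2 fold changes was 1.23 ± 0.22 (edgeR adjusted p = 0.00347). Without replicate 2 of MDA-MB-231 7TGP-POS it was 0.99, under the size limit, and without replicate 1 of MDA-MB-436 7TGP-POS its adjusted p was 0.0523. In low serum ABCC3 was at 44.98 and 43.98 against 62.7 and 51.0 in MDA-MB-231 (0.36 ± 0.08, edgeR adjusted p = 0.00222) and at 113 and 109 against 104 and 115 in MDA-MB-436 (-0.02 ± 0.07, edgeR adjusted p = 0.836).

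ABCG2 in standard serum was at 4.10 and 3.40 normalized CPM in the negative and 5.47 and 5.46 in the positive cells of MDA-MB-231. In MDA-MB-436 it was at 2.12 and 2.51 in the negative and 1.46 and 1.30 in the positive cells. The groups did not overlap within either line, with log2 fold changes of 0.54 ± 0.17 (edgeR adjusted p = 0.0197) and -0.74 ± 0.20 (edgeR adjusted p = 0.00451), and the difference of 1.28 ± 0.26 passed the test (edgeR adjusted p = 0.000649). In low serum the positive cells of MDA-MB-231 had less ABCG2 than the negative cells, at 4.01 and 5.41 against 7.00 and 6.58 normalized CPM (-0.54 ± 0.16, edgeR adjusted p = 0.00642). Its low serum value in MDA-MB-436 was -0.51 ± 0.25 (edgeR adjusted p = 0.0843).

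Of the other efflux members, ABCC10 passed the adjusted p as lower in 3 of the 4 comparisons, with log2 fold changes of -0.66 and -0.61 in MDA-MB-231 in low and standard serum and -0.67 in MDA-MB-436 in standard serum. Its 20 nearest tested genes, 10 on each side, had median log2 fold changes of -0.56 and -0.67 in MDA-MB-231, low serum first. Their median was -0.03 in MDA-MB-436 in standard serum. In MDA-MB-436 in standard serum 5 of the 9 efflux members were lower at an adjusted p under 0.05 (ABCB1, ABCC1, ABCC3, ABCC10 and ABCG2) and 0 were higher, with a list median of -0.63, while 49.5% of all genes passed. In MDA-MB-231 in standard serum 3 were higher (ABCC2, ABCC3 and ABCG2) and 1 lower, with a list median of 0.42, while 33.0% of all genes passed. No share of the efflux list was tested. In low serum the counts were 1 higher and 3 lower in MDA-MB-231 and 0 higher and 1 lower in MDA-MB-436.

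**Figure D3:**
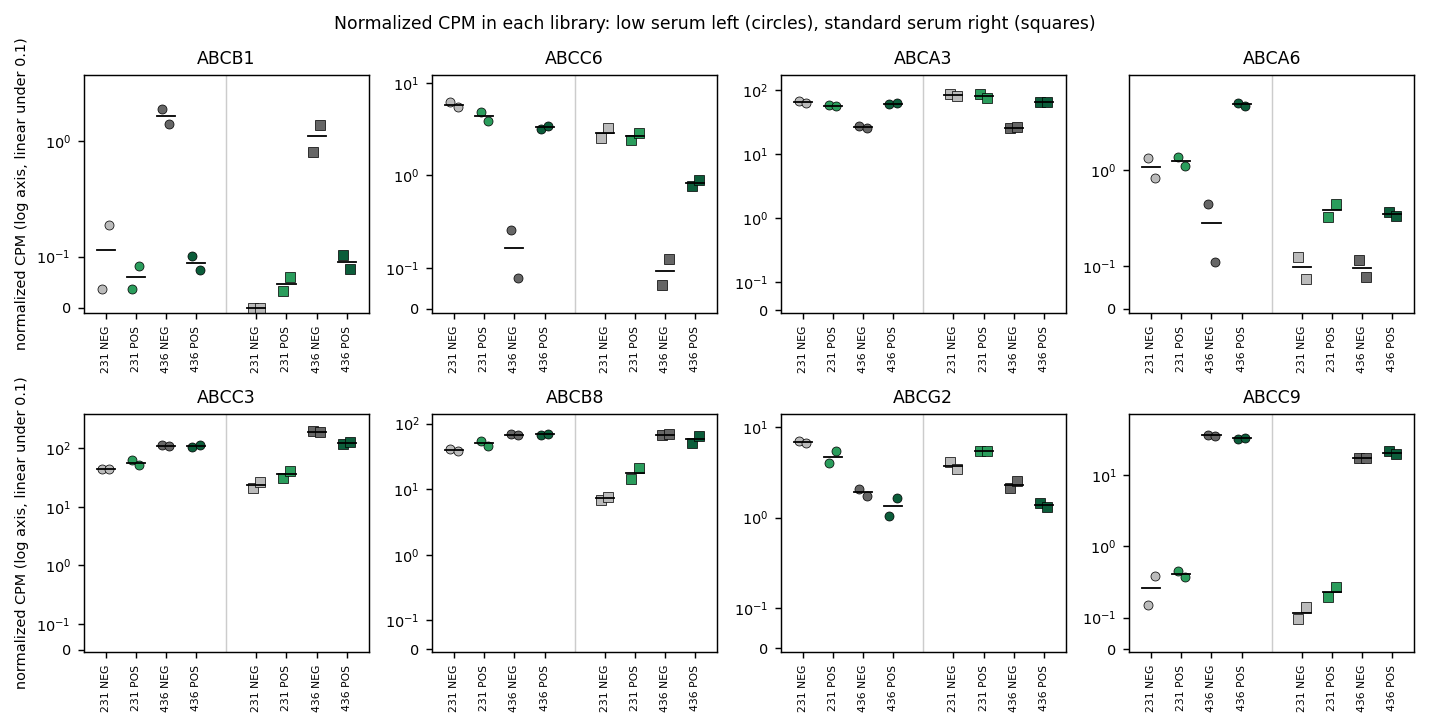
Normalized CPM in each library (log axis, linear under 0.1) for 8 members; circles on the left of each panel are low serum, squares on the right are standard serum, and the black line is the mean of 2 libraries. ABCB1 is highest in both MDA-MB-436 7TGP-NEG groups, ABCC6 is lowest in those same groups, and ABCC9 separates the cell lines.

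Among lipid transporters, ABCA3, which loads phospholipids into lamellar bodies in lung and acts on lysosome-related vesicles, was the best measured called member. In low serum ABCA3 was at 26.8 and 25.7 normalized CPM in MDA-MB-436 7TGP-NEG and 61.3 and 61.5 in MDA-MB-436 7TGP-POS (1.22 ± 0.06, edgeR adjusted p = 1.21e-19). Under standard serum it was at 25.6 and 26.1 in the negative and 64.6 and 64.5 in the positive cells (1.32 ± 0.09, edgeR adjusted p = 7.64e-10). MDA-MB-231 libraries lay at 55.5 to 68.3 in low serum and 74.2 to 87.2 in standard serum, so MDA-MB-436 7TGP-NEG was the low group in each condition. The responses of the lines differed by -1.42 ± 0.09 in low serum (edgeR adjusted p = 4.34e-17) and by -1.39 ± 0.12 in standard serum (edgeR adjusted p = 5.13e-08), taken as MDA-MB-231 minus MDA-MB-436.

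ABCG4, a sterol exporter described mainly in brain, was called lower in MDA-MB-231 in standard serum on 23 and 22 counts in 7TGP-NEG and 12 and 10 in 7TGP-POS (-1.11 ± 0.38, edgeR adjusted p = 0.0303). The call was lost without replicate 1 or 2 of the negative or replicate 2 of the positive group and with DESeq2 (adjusted p = 0.171). ABCG1, which exports cholesterol to lipoproteins, held 3 and 10 counts in the negative and 2 and 2 in the positive cells of MDA-MB-231 under standard serum, a count ratio of 3.31 with an exact 95% interval of 1.02 to 13.9 for counting error, and did not pass the test (edgeR adjusted p = 0.0563). In MDA-MB-436 ABCG1 was at 22.9 and 22.0 normalized CPM in the negative and 28.1 and 28.1 in the positive cells (0.32 ± 0.11, edgeR adjusted p = 0.0251). The positive group of MDA-MB-231 was at the floor of 3 counts or fewer in each library, so the size of the difference between lines is not fixed by the data. Its fitted value, -2.06 ± 0.68 (edgeR adjusted p = 0.0213), was -2.75 without replicate 1 of MDA-MB-231 7TGP-NEG, went to -0.89 with an adjusted p of 0.575 without replicate 2 of MDA-MB-231 7TGP-NEG, and its adjusted p was 0.0717 and 0.0953 without replicate 1 and replicate 2 of MDA-MB-231 7TGP-POS.

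ABCA1, the cholesterol exporter that forms nascent HDL, was at 5.37 to 23.1 mean TPM over the 8 groups and was not called in any 7TGP comparison. It passed the adjusted p as higher in MDA-MB-231 in low serum (0.43 ± 0.06, edgeR adjusted p = 1.65e-07) and as lower in MDA-MB-436 in standard serum (-0.70 ± 0.14, edgeR adjusted p = 0.00162). ABCA2, a lysosomal lipid transporter, passed it as lower in MDA-MB-231 in both serum conditions, by -0.86 ± 0.09 and -0.85 ± 0.14. The median of its 20 nearest tested genes there was -0.72 in low serum and -0.23 in standard serum. ABCA7, which moves phospholipids, passed the adjusted p as lower in MDA-MB-436 in both serum conditions, by -0.28 ± 0.06 and -0.93 ± 0.25, and in MDA-MB-231 in low serum, by -0.25 ± 0.07. ABCA4, ABCA12, ABCB4 and ABCG8 did not pass the test in any 7TGP comparison in which they were tested.

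A group of 5 ABCA genes lies side by side on chromosome 17 on the minus strand, in the order ABCA8, ABCA9, ABCA6, ABCA10 and ABCA5, and encodes little studied lipid transporters. ABCA6 (chromosome 17, 67074843 to 67138036 on GRCh37) held 14 and 3 counts in MDA-MB-436 7TGP-NEG and 149 and 128 in MDA-MB-436 7TGP-POS in low serum (4.04 ± 0.30, edgeR adjusted p = 1.65e-14), and the value was 5.39 without replicate 1 and 3.42 without replicate 2 of 7TGP-NEG. In the same comparison ABCA9 held 4 and 2 against 19 and 17 counts (2.56 ± 0.63, edgeR adjusted p = 0.000663), and ABCA10 held 34 and 23 against 81 and 61 (1.34 ± 0.28, edgeR adjusted p = 9.72e-05). ABCA5 passed the adjusted p with 0.26 ± 0.10, and ABCA8 stood at 2 and 1 counts in 7TGP-NEG and 0 and 0 in 7TGP-POS. The list median was 1.34 here.

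The same cluster was not called together in MDA-MB-231 in low serum, where ABCA8 alone was called, at 13 and 8 counts in 7TGP-NEG and 40 and 51 in 7TGP-POS (2.17 ± 0.37, edgeR adjusted p = 6.64e-06). The list median was 0.12. The low serum responses of the lines differed for ABCA6 (-3.83 ± 0.48, edgeR adjusted p = 1.13e-08), ABCA9 (-3.83 ± 0.96, edgeR adjusted p = 0.000994) and ABCA10 (-1.48 ± 0.40, edgeR adjusted p = 0.00231). The ABCA6 difference was -5.17 without replicate 1 and -3.22 without replicate 2 of MDA-MB-436 7TGP-NEG, and the ABCA9 difference was -4.45 without replicate 2 of MDA-MB-231 7TGP-NEG. Without replicate 1 of MDA-MB-231 7TGP-NEG the ABCA9 and ABCA10 differences lost their call (-2.70 and -0.85, adjusted p = 0.0911 and 0.131). The ABCA8 difference is void as a size because both MDA-MB-436 groups were at 3 counts or fewer in each library, and its adjusted p was 0.0536 to 0.124 without replicate 1 of MDA-MB-436 7TGP-NEG or either replicate of MDA-MB-436 7TGP-POS.

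Under standard serum ABCA6, ABCA8, ABCA9 and ABCA10 each held at most 34 counts in a library. ABCA6 held 4 and 2 against 10 and 15 counts in MDA-MB-231 (1.93 ± 0.61, edgeR adjusted p = 0.0203) and 4 and 3 against 18 and 13 in MDA-MB-436 (1.87 ± 0.57, edgeR adjusted p = 0.0104), negative cells first. ABCA8 held 4 and 0 against 14 and 27 counts in MDA-MB-231 (3.20 ± 0.76, edgeR adjusted p = 0.00493) and 0 in all 4 MDA-MB-436 libraries. ABCA10 held 15 and 12 against 34 and 32 in MDA-MB-231 (1.198 ± 0.35, edgeR adjusted p = 0.0128) and 13 and 24 against 30 and 23 in MDA-MB-436 (0.29 ± 0.34, edgeR adjusted p = 0.515). ABCA5 passed the adjusted p in MDA-MB-231 with 0.91 ± 0.20, and ABCA9 passed it in neither line. All 4 of these calls were lost with DESeq2 (adjusted p = 0.141 to 0.661). They were also lost without single libraries: ABCA6 in MDA-MB-231 without replicate 1 or 2 of 7TGP-NEG or replicate 2 of 7TGP-POS, ABCA6 in MDA-MB-436 without replicate 2 of 7TGP-NEG or replicate 1 of 7TGP-POS, ABCA8 without replicate 2 of 7TGP-POS (log2 fold change 2.72), and ABCA10 without replicate 1 or 2 of 7TGP-NEG or replicate 1 of 7TGP-POS. For ABCA8 the value was 2.31 without replicate 2 of 7TGP-NEG, and without replicate 1 the only negative library held 0 counts, so no size can be given.

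**Figure D4:**
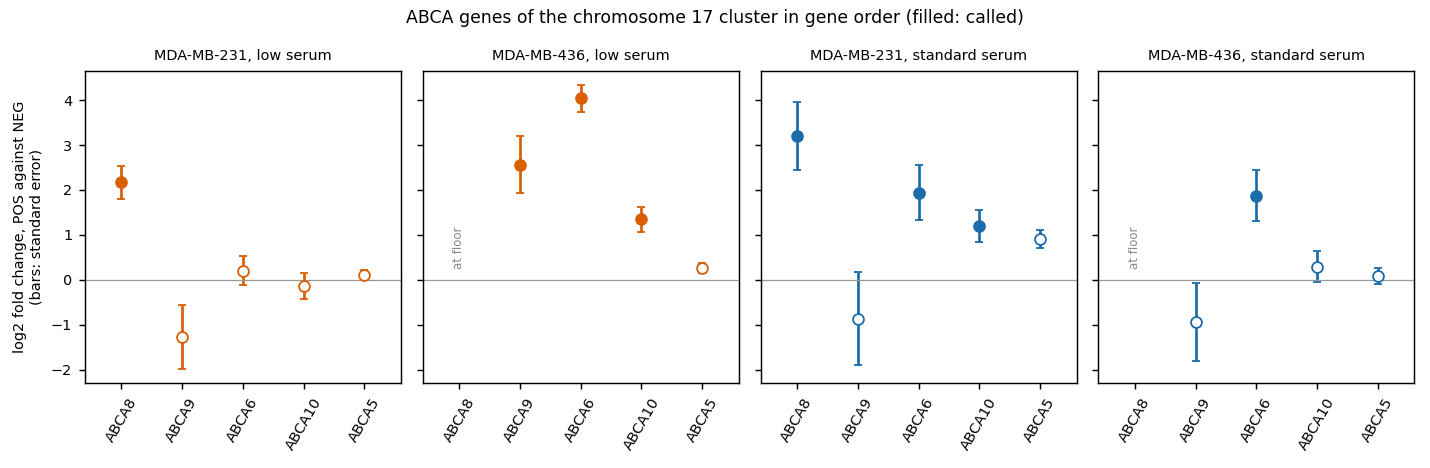
Log2 fold change of 7TGP-POS against 7TGP-NEG with its standard error for the 5 ABCA genes of the chromosome 17 cluster in gene order, in each line and serum condition; filled points are called, and "at floor" marks groups with 3 counts or fewer in each library. ABCA9, ABCA6 and ABCA10 are filled in MDA-MB-436 in low serum, and ABCA8 alone in MDA-MB-231 in low serum.

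ABCB8, a mitochondrial member, is part of a potassium channel and iron export system. In standard serum ABCB8 was at 6.95 and 7.71 normalized CPM in the negative and 14.3 and 20.7 in the positive cells of MDA-MB-231 (1.26 ± 0.21, edgeR adjusted p = 0.00372). In MDA-MB-436 it was at 67.8 and 68.6 in the negative and 50.5 and 64.4 in the positive cells (-0.25 ± 0.17, edgeR adjusted p = 0.29). The difference of 1.51 ± 0.28 passed the test (edgeR adjusted p = 0.00431). Without replicate 2 of MDA-MB-231 7TGP-POS the change in MDA-MB-231 was 0.97, under the size limit. In low serum ABCB8 passed the adjusted p as higher in MDA-MB-231 (0.36 ± 0.07, edgeR adjusted p = 0.000105). It did not pass in MDA-MB-436 (0.02 ± 0.07, edgeR adjusted p = 0.811). ABCB6, a porphyrin-associated transporter, passed the adjusted p as lower in MDA-MB-231 in low serum (-0.92 ± 0.24, edgeR adjusted p = 0.00219).

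ABCD2, ABCD3, ABCD4 and ABCB9, the lysosomal peptide transporter, were not called in any 7TGP comparison in which they were tested.

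ABCC8 and ABCC9 encode the sulfonylurea receptors, the regulatory subunits of ATP-sensitive potassium channels. In standard serum ABCC8 held 77 and 68 counts in MDA-MB-436 7TGP-NEG and 44 and 34 in MDA-MB-436 7TGP-POS (-1.13 ± 0.27, edgeR adjusted p = 0.00201). The change was -0.94 without replicate 1 of MDA-MB-436 7TGP-NEG, and the call was lost with DESeq2 (adjusted p = 0.0857). ABCC9 was not called in any 7TGP comparison and passed the adjusted p in MDA-MB-436 in standard serum (0.27 ± 0.11, edgeR adjusted p = 0.0455).

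Of the members with other roles, ABCC6 rose most. ABCC6 (ENSG00000091262, chromosome 16, 16243422 to 16317379 on GRCh37) is a liver and kidney transporter whose loss causes pseudoxanthoma elasticum, a calcification disorder. In low serum it held 8 and 2 counts in MDA-MB-436 7TGP-NEG and 95 and 92 in MDA-MB-436 7TGP-POS (4.22 ± 0.34, edgeR adjusted p = 7.11e-14). Under standard serum it held 2 and 5 counts in the negative and 37 and 35 in the positive cells (3.09 ± 0.45, edgeR adjusted p = 1.74e-05). MDA-MB-231 libraries held 95 to 166 and 74 to 97 counts, so MDA-MB-436 7TGP-NEG was again the group apart. The responses of the lines differed by -4.63 ± 0.39 in low serum (edgeR adjusted p = 3.37e-13) and -3.19 ± 0.51 in standard serum (edgeR adjusted p = 6.44e-05). Single negative libraries of MDA-MB-436 moved these sizes. Without replicate 1 the low serum change in MDA-MB-436 was 5.38 and the difference -5.78, and without replicate 2 the standard serum values were 3.74 and -3.85. ABCC6 shares near-identical sequence with its pseudogenes, so its own count is uncertain. The pseudogene ABCC6P1 held 0 and 0 counts in MDA-MB-436 7TGP-NEG and 27 and 20 in MDA-MB-436 7TGP-POS in low serum, and 0 and 0 against 24 and 19 in standard serum.

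ABCB5, described in melanoma and limbal stem cells, held 2 and 4 counts in MDA-MB-436 7TGP-NEG and 10 and 14 in MDA-MB-436 7TGP-POS in low serum (1.98 ± 0.72, edgeR adjusted p = 0.0184). The call was lost without replicate 1 of the negative or replicate 2 of the positive group (adjusted p = 0.164 and 0.147) and with DESeq2 (adjusted p = 0.155), and the value was 2.64 without replicate 2 of the negative group. In standard serum ABCB5 held 1 and 1 against 7 and 4 counts, a ratio of 4.88 with an exact 95% interval of 1.07 to 45.3, and did not pass the test (edgeR adjusted p = 0.102). ABCA13 passed the adjusted p in MDA-MB-231 in low serum with 0.59 ± 0.18. ABCC12, measured in low serum alone, did not pass it.

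The translation ATPases were not called in any 7TGP comparison. Their largest change was in ABCE1 in MDA-MB-436 in standard serum (0.75 ± 0.08, edgeR adjusted p = 2.79e-07). In MDA-MB-231 ABCF2 rose with 7TGP status in both serum conditions, by 0.45 ± 0.06 and 0.40 ± 0.08, and ABCF3 was lower in all 4 comparisons, by -0.18 to -0.46, with each of these passing the adjusted p. The median of the 20 nearest tested genes around ABCF2 in MDA-MB-231 was 0.36 in low serum and 0.46 in standard serum.

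Calls of low members depend on the scale. On log2 TPM with a pseudocount of 0.5, rescaled over the genes tested (a setting chosen after seeing the data), ABCB1 in both serum conditions, ABCA3 in both, and ABCA6 and ABCC6 in low serum kept their call in MDA-MB-436, and ABCB8 kept it in MDA-MB-231. The other called 7TGP changes described above fell under a log2 fold change of 1 there, which understates low genes.

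The second question was whether the response to 7TGP status differed between the lines. In low serum 6 members were called (ABCA3, ABCA6, ABCA8, ABCA9, ABCA10 and ABCC6) while 11.7% of all genes were. In standard serum 9 members were called (among them ABCB1, ABCC3, ABCG2, ABCA3, ABCG1, ABCB8 and ABCC6) while 13.8% of all genes were. ABCA3 and ABCC6 were called in both serum conditions, each higher in the positive cells of MDA-MB-436. In MDA-MB-231 both passed the adjusted p as lower in low serum (-0.20 ± 0.06, edgeR adjusted p = 0.00644, and -0.41 ± 0.16, edgeR adjusted p = 0.0409) and did not pass it in standard serum.

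The third question was how the negative sublines of the cell lines differed. In low serum 23 of 43 members were called, 13 higher in MDA-MB-231 7TGP-NEG and 10 lower, beside 41.9% of all genes. In standard serum 20 of 39 were called, 7 higher and 13 lower, beside 46.7% of all genes. ABCC9 and ABCC6 had the largest differences in low serum, and in standard serum ABCA4, a retinoid lipid transporter, was also far apart, with 24 and 11 counts in MDA-MB-231 7TGP-NEG and 0 and 0 in MDA-MB-436 7TGP-NEG. ABCC9 was at 0.148 and 0.378 normalized CPM in MDA-MB-231 7TGP-NEG and 36.6 and 36.2 in MDA-MB-436 7TGP-NEG in low serum (-7.10 ± 0.17, edgeR adjusted p = 1.06e-32, and -7.90 without replicate 2 of MDA-MB-231 7TGP-NEG), and at 0.0939 and 0.140 against 17.4 and 17.4 in standard serum (-7.19 ± 0.22, edgeR adjusted p = 1.44e-15). ABCC8 was also lower in MDA-MB-231 7TGP-NEG, with 2 and 5 counts against 58 and 31 in low serum.

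The channel pore genes that partner with these receptors were measured too. KCNJ8 held 2 and 2 counts in MDA-MB-231 7TGP-NEG and 103 and 87 in MDA-MB-436 7TGP-NEG in low serum, and 1 and 0 against 99 and 101 in standard serum. KCNJ11 held 3 and 3 against 34 and 20, and 10 and 16 against 40 and 48. Both were called lower in MDA-MB-231 7TGP-NEG in each serum condition. KCNJ11 was also called lower in the positive than the negative cells of MDA-MB-231 in standard serum, with 2 and 3 counts against 10 and 16 (-2.42 ± 0.61, edgeR adjusted p = 0.00457).

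ABCC6 ran the other way, at 6.15 and 5.49 normalized CPM in MDA-MB-231 7TGP-NEG against 0.257 and 0.0743 in MDA-MB-436 7TGP-NEG in low serum (5.04 ± 0.30, edgeR adjusted p = 9.02e-19), and was 4.88 ± 0.38 higher in standard serum (edgeR adjusted p = 7.89e-10). These values were 6.20 without replicate 1 of MDA-MB-436 7TGP-NEG in low serum and 5.53 without its replicate 2 in standard serum. ABCG1 was lower in MDA-MB-231 7TGP-NEG by -4.06 ± 0.23 in low serum (edgeR adjusted p = 1.84e-19) and -6.68 ± 0.22 in standard serum (edgeR adjusted p = 3.16e-15). ABCB1 was lower there in low serum (-3.84 ± 0.49, edgeR adjusted p = 3.1e-09). In standard serum both MDA-MB-231 7TGP-NEG libraries held 0 ABCB1 counts, so it was at least 13.1-fold lower against a floor of 3 counts per library. ABCG2 was higher in MDA-MB-231 7TGP-NEG by 1.83 ± 0.18 in low serum (edgeR adjusted p = 7.78e-12) and by 0.70 ± 0.18 in standard serum (edgeR adjusted p = 0.00203).

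Genes around the called members did not all move with them. The median log2 fold change of the 20 nearest tested genes, 10 on each side, was 0.91 around ABCB1 in MDA-MB-436 in low serum, with 7 called higher and 0 called lower, while ABCB1 itself fell by 4.17 on the log2 scale. In standard serum this median was 1.13, with 14 of 20 neighbours called higher and 0 lower. Of all genes, 6.52% and 6.47% were called higher in MDA-MB-436 in low and standard serum, and 4.96% in MDA-MB-231 in standard serum. Around ABCC6 the median was 0.40 and 0.36 in MDA-MB-436, with 4 and 3 neighbours called higher and 0 lower, and ABCC1, which lies beside it, was not called. Around ABCA3 it was 0.15 and -0.03. Around ABCB8 in MDA-MB-231 in standard serum it was 0.47, with 4 called higher and 0 lower. In low serum the median there was 0.38, beside 0.36 for ABCB8 itself. ABCF2 lies nearby on chromosome 7, and the median around it in MDA-MB-231 was 0.36 and 0.46, low serum first. Around ABCA6 in MDA-MB-436 in low serum it was 0.23, with 5 called higher and 0 lower, and these neighbours include the other genes of the cluster.

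**Figure D5:**
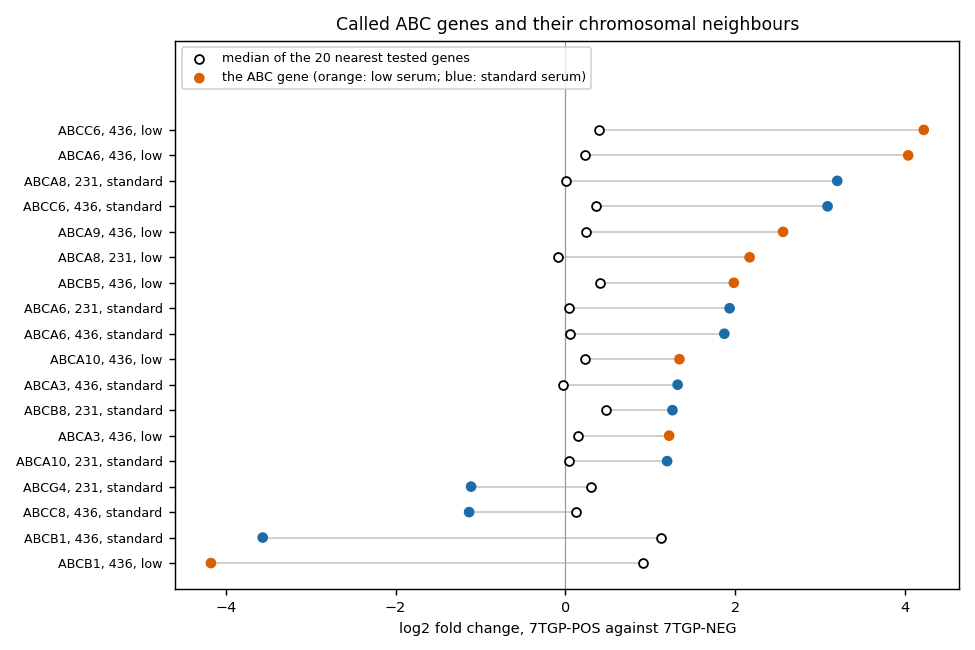
Log2 fold change of 7TGP-POS against 7TGP-NEG for called ABC genes, labelled by cell line, and serum condition (orange low, blue standard), beside the median of its 20 nearest tested genes (open circles). ABCB1 in MDA-MB-436 lies far to the left of its neighbours, whose medians are 0.91 and 1.13.

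Regulators and relatives of the family were counted from fixed lists. Of 10 genes of the liver X receptor (LXR) system, which controls ABCA1 and ABCG1, 5 were higher and 4 lower at an adjusted p under 0.05 in MDA-MB-436 in low serum, and 2 higher and 6 lower in standard serum. In MDA-MB-231 these counts were 3 higher and 5 lower, and 3 higher and 4 lower. Of all genes, 52.0% and 49.5% passed in MDA-MB-436 and 38.9% and 33.0% in MDA-MB-231, low serum first. APOE, a cholesterol-carrying LXR target, was called higher in MDA-MB-436 in low serum (3.14 ± 0.18, edgeR adjusted p = 9.3e-19), and NR1H3, which encodes LXR alpha, was called higher in MDA-MB-231 in standard serum (1.00 ± 0.11, edgeR adjusted p = 1.04e-06). LPCAT3, a phospholipid-remodelling LXR target, was called lower in MDA-MB-436 in standard serum (-1.18 ± 0.08, edgeR adjusted p = 1.01e-09).

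Of the xenobiotic and NRF2 list, 9 genes reached the count minimum in low serum, as did 10 in standard serum. In MDA-MB-436, 1 was higher and 7 lower in low serum and 1 higher and 6 lower in standard serum, where 52.0% and 49.5% of all genes passed the adjusted p. In MDA-MB-231, 1 was higher and 2 lower, and 3 higher and 0 lower, where 38.9% and 33.0% of all genes passed. AHR, the receptor for aromatic xenobiotics, was called higher in MDA-MB-436 in both serum conditions (1.59 ± 0.06, edgeR adjusted p = 5.3e-25, and 1.70 ± 0.08, edgeR adjusted p = 1.75e-11), and HMOX1, a stress-induced heme-degrading enzyme, was called lower there in standard serum (-1.51 ± 0.09, edgeR adjusted p = 1.77e-10). NR1I2, which encodes the pregnane X receptor, was called higher in MDA-MB-231 in standard serum on 0 and 2 counts in the negative and 7 and 13 in the positive cells (edgeR adjusted p = 0.0209). Of 10 partner proteins of members, 4 were higher and 4 lower in MDA-MB-436 in low serum, 3 and 3 in standard serum, 2 and 0 in MDA-MB-231 in low serum, and 0 and 1 there under standard serum. The shares of all genes passing are those given for the xenobiotic list. TAP1, a subunit of the peptide transporter for antigen presentation, rose with 7TGP status in MDA-MB-231 in both serum conditions, by 0.42 ± 0.06 (edgeR adjusted p = 2.42e-07) and 0.37 ± 0.08 (edgeR adjusted p = 0.00157). In MDA-MB-436 TAP1 was at -0.11 ± 0.06 in low serum (edgeR adjusted p = 0.129) and passed the adjusted p as lower in standard serum (-0.37 ± 0.08, edgeR adjusted p = 0.00103). TAP2 held at most 11 counts in a library.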

How the data were processed

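The deposited counts are raw and unnormalized. The authors aligned reads to hg19 with STAR (2.6.1a in the submitters' processing notes) and took its gene counts on Gencode v19. TPM values were made by the authors and deposited beside the counts, and how they were calculated is not given in the sources used here. Symbols and biotypes came from Gencode v44 lifted to GRCh37, and 2282 of 57820 rows had no match.

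The low serum and standard serum tables, 8 libraries each, were fitted separately. Protein-coding genes with at least 10 counts over the 8 libraries were normalized with TMM factors and tested with edgeR's robust quasi-likelihood model over 4 groups, with Benjamini-Hochberg adjustment over all genes tested. Normalized CPM uses TMM-scaled library sizes over these genes. Standard errors were derived from the F statistic of each test. A group with 3 counts or fewer in each library is at the floor. Floors and intervals cover counting error only. With 2 replicates per group, p-values weigh a difference against the spread between replicate libraries of the same sublines.

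Library values and test results are given for 15 members, though not for each comparison. These were called in a 7TGP comparison or in a difference between the lines, or had 1 of the 2 largest differences between negative sublines called in both serum conditions. That ranking used the smaller of the serum values of each member. The low serum 7TGP changes of ABCG1, ABCG4 and ABCC8 are left out, and none of them passed the adjusted p. Results of 2 members are not reported here, although the counts of members include them. The members and gene lists were chosen with earlier results of these data known. The fit was tested on simulated data that held no difference between the cell lines and no change in genes with few counts. That test does not bear on members with few counts. Alternatives were DESeq2 and its size factors, other filters and biotypes, the compared libraries alone, a replicate block, limma-trend on log2 TPM, and leaving out each library. Promoter windows came from RefSeq (GRCh38.p14).

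Versions were R 4.3.3, edgeR 4.0.16, limma 3.58.1, DESeq2 1.42.0, Python 3.11.15, pandas 2.3.3, numpy 2.4.6, scipy 1.17.1 and matplotlib 3.10.9.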

Additional observations from a re-analysis of the deposited data

Results flagged for a closer look

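The 11 results below were picked out because the response to 7TGP status differed between the cell lines by the test of the difference itself (edgeR's quasi-likelihood interaction, adjusted p under 0.05, at least 1 on the log2 scale). Each value is the log2 fold change in MDA-MB-231 minus that in MDA-MB-436. In low serum they were -1.42 for ABCA3, -3.83 for ABCA6, -3.83 for ABCA9, -1.48 for ABCA10 and -4.63 for ABCC6. In standard serum they were 1.23 for ABCC3, 1.28 for ABCG2, -1.39 for ABCA3, -2.06 for ABCG1, 1.51 for ABCB8 and -3.19 for ABCC6. Only ABCA3 and ABCC6 were called in both serum conditions. In standard serum ABCA6 (0.06 ± 0.96), ABCA10 (0.91 ± 0.50) and ABCA9, with a group at the floor, did not pass the adjusted p. In low serum ABCG2 (-0.02 ± 0.31) and ABCG1 (-0.51 ± 0.48) did not pass it. ABCC3 (0.38 ± 0.11) and ABCB8 (0.335 ± 0.10) passed it there under the size limit.

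Among the results picked out in standard serum, the values above 0 belong to an organic anion pump, a multidrug pump and a mitochondrial member. The calls for ABCA9 and ABCA10 in low serum and for ABCC3 and ABCG1 in standard serum were lost without 1 library, named beside those results. In standard serum the positive group of MDA-MB-231 was at 3 counts or fewer in each library for ABCG1, so its standard serum value has no fixed size. The ABCC6 count is uncertain because of its near-identical pseudogenes.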

How the results depend on the processing

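None of the 38 called gene-level results followed through the alternatives reversed its direction. Changes that were not called were not checked in this way. For single genes, DESeq2's Wald test kept 31 of 38 calls and lost 7, leaving out each library kept 276 calls and lost 28, and the limma-trend fits on log2 TPM kept 20 (pseudocount 0.5), 21 (0.5, rescaled over the genes tested, chosen after seeing the data) and 13 (pseudocount 1). DESeq2 size factors, no filter on low counts, all biotypes and the compared libraries alone kept the call in every gene-level result they could give, and edgeR's filterByExpr in 37, leaving 1 gene untested.

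Counts of called members moved as follows. In MDA-MB-231 in low serum, 1 member became 0 with rescaled TPM and 19 with the adjusted p alone, and ranged from 1 to 4 without single libraries. In MDA-MB-436 in low serum, 7 became 3 with TPM + 0.5, 0 with TPM + 1, 4 with rescaled TPM and 14 with the adjusted p alone. In MDA-MB-231 in standard serum, 5 became 1 with DESeq2 and with each of the 3 TPM fits and 16 with the adjusted p alone, and ranged from 1 to 5 without single libraries. In MDA-MB-436 in standard serum, 6 became 3 with TPM + 0.5, 2 with TPM + 1, 3 with rescaled TPM and 20 with the adjusted p alone. For the difference between lines, 6 became 2 with TPM + 1 and 14 with the adjusted p alone in low serum. In standard serum 9 became 4 and 18 in the same order. Between the negative sublines 23 became 15 and 20 became 13 with TPM + 1. The cause was not tested, except that a pseudocount on TPM shrinks changes of low genes.

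The replicate numbers are shared between groups, but nothing in the labels pairs them. With the replicate number as a block, the counts of called members were 1, 7, 23 and 6 for low serum, then 5, 6, 20 and 10 for standard serum (MDA-MB-231, MDA-MB-436, negative sublines, difference between lines), and all 38 gene-level results kept their call. Members with few counts per library (ABCB1, ABCA8, ABCA9 and ABCB5) are limited by counting error, and where both groups were at the floor a change was not measurable.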
